A study of Homo sapiens with 4 samples.

Results

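The MAPK phosphatase, Sprouty and SPRED genes were followed in MCF10AT cells, 10 genes chosen by name among the 58233 in the count table: DUSP1, DUSP4, DUSP5, DUSP6, DUSP7, SPRY1, SPRY2, SPRY4, SPRED1 and SPRED2. MCF10AT, an established line of human breast epithelium derived from MCF10A, carries an oncogenic form of HRAS, a background that all 4 libraries share. Polyadenylated RNA was sequenced from 2 libraries whose genotype is labelled Bromo+/- and from 2 labelled non-target control. The labels do not spell out Bromo. The series title names a knockdown of EP300, which encodes the acetyltransferase p300, and the protocol describes lentiviral shRNA with puromycin selection, but no label assigns an shRNA to these libraries. The medium of all cells held hydrocortisone, insulin and epidermal growth factor beside cholera toxin and horse serum. No label says that the libraries of a group came from separate cultures or clones, so the p-values speak of the spread among these 4 samples alone, and that spread may be technical.

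These genes encode brakes on signals that pass from receptor kinases through RAS to the MAP kinases. MAPK phosphatases remove the activating phosphates from threonine and tyrosine of ERK, JNK or p38. Sprouty proteins act further up, between the receptor and RAS, and SPRED proteins bring neurofibromin, which turns RAS off, to the membrane. Many of these genes are themselves switched on by ERK, so their transcripts are often read as a sign of how much signal has passed. Signalling itself was not measured here.

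Libraries held 10835237 to 11975396 counts. EP300 stood at 121 and 126 CPM (counts relative to a fixed library total, scaled for composition) under the label Bromo+/-, and the controls had 106 and 111 CPM. EP300 was thus not lower under the label Bromo+/- (log2 fold change 0.19, SE 0.06, adjusted p = 0.00701, edgeR quasi-likelihood test), but DESeq2 gave EP300 an adjusted p of 0.0639, and leaving out control replicate 1 gave 0.144 (range over all alternatives 0.000105 to 0.144). HRAS, the oncogene of this line, was at 235 and 220 CPM against 160 and 155 CPM (log2 fold change 0.53, SE 0.06). CREBBP, the paralogue of EP300, rose slightly (log2 fold change 0.39, adjusted p = 7.13e-08, edgeR). Counts per gene do not separate an introduced HRAS from the cell's own.

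The labelled cell type was checked against its markers, beside a background of 26.4% of all 13179 tested genes higher and 27.1% lower. All 11 tested markers of mammary epithelium (of 12 listed) were lower in the libraries labelled Bromo+/-, with summed levels of 1799 to 1887 CPM against 10380 to 10680 CPM, and CDH1, the gene of E-cadherin, was at 2.54 ± 0.0905 CPM against 411 ± 7.72 CPM (SD, n = 2 per group). Of 10 tested genes of a fibroblast and mesenchymal list of 16, 9 were higher and FAP was lower, with summed levels of 5955 to 6124 CPM against 1855 to 1971 CPM and COL3A1 and LUM at 0 counts throughout. Leukocyte markers summed to 4.43 to 5.05 CPM against 13.1 to 14.4 CPM, with CD3E at 0 counts, and endothelial markers to 8.50 to 9.29 CPM against 16.7 to 20.0 CPM, with VWF at 0. These shifts separate the groups in the same way as every result below, and their part in those results was not tested. In bulk RNA, fewer cells of a type and less RNA per cell cannot be told apart.

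Promoter sequences (RefSeq, GRCh38.p14) of 8 of the 10 genes were searched, in 12 windows. The 250 bases before the transcription start are printed for DUSP1, which rose most of the 10, and for DUSP7 and SPRY2, the phosphatase and the Sprouty gene among the 10 that fell most. They are written 5′ to 3′ on the gene's strand, and capitals mark every match, on either strand, to the motifs named after them.
DUSP1 promoter, chr5:172771196-172771445, minus strand: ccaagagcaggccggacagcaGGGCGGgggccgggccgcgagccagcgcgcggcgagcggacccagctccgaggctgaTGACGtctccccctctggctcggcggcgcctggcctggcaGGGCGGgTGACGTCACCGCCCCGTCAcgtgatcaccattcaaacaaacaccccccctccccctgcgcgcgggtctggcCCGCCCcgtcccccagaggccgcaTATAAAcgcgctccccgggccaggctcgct
DUSP7 promoter, chr3:52056572-52056821, minus strand: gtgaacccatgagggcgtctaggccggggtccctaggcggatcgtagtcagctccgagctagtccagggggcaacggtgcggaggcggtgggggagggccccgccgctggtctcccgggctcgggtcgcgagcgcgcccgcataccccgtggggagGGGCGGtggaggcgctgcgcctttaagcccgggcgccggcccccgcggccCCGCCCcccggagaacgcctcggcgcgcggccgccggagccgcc
SPRY2 promoter, the most upstream of 3 listed starts, chr13:80341127-80341376, minus strand: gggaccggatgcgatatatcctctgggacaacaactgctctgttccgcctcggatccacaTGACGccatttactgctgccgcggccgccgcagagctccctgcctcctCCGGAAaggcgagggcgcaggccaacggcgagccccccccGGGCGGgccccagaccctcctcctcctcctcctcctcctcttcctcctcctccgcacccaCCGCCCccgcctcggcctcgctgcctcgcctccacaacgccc

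The motifs searched were the cAMP response element (CRE) TGACGTCA, its shorter core TGACG, the AP-1 motif TGANTCA, the ETS motif CCGGAA, the GC box GGGCGG, the TATA box TATAAA and the CArG box. A full CRE also counts as matches to the shorter core, and no other pair of these motifs contains one another, though single matches can share bases. The DUSP1 window held the full CRE, 125 to 118 bases before the start, a motif found in 1.65% of 35116 windows of the same length. It also held 4 matches to the shorter core, 2 of them in the full CRE, against 21.2% of windows with any, a TATA box 30 to 25 bases before the start (10.7% of windows) and 4 GC boxes (42.6%). None of the other 11 windows searched held the full CRE, but DUSP4 and DUSP5 were not among the genes searched. The search left out windows on chromosome 8, where DUSP4 lies. The DUSP7 window held 2 GC boxes, and the printed window of SPRY2 held 2 GC boxes, 1 match to the shorter CRE core and 1 to the ETS motif (14.5% of windows). The windows of the other SPRY2 starts held no match to any of these motifs. No window of the 8 genes held the AP-1 motif (6.57% of windows) or the CArG box (1.16%). A match describes the letters of a window, and binding was not measured.

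Of the 10 genes, 4 rose in the libraries labelled Bromo+/- (DUSP1, SPRED1, SPRED2 and SPRY4), 4 fell (DUSP4, DUSP5, DUSP7 and SPRY2), and DUSP6 and SPRY1 did not pass an adjusted p of 0.05. All 10 passed the filter on low counts. Over all 13179 genes tested 53.5% passed, 26.4% higher and 27.1% lower, and the median log2 fold change of the 10 genes was -0.27 beside 0.01 for all genes. The ranges of the groups did not overlap for any of the 10 genes, 4 higher and 6 lower, beside 75.2% of all genes tested. DUSP6 lost that separation when libraries were scaled by size alone or by the upper quartile. DUSP1 was the only one of the 10 to differ by 2-fold or more, and 4.78% of tested genes had a larger log2 fold change in either direction.

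**Figure D1:**
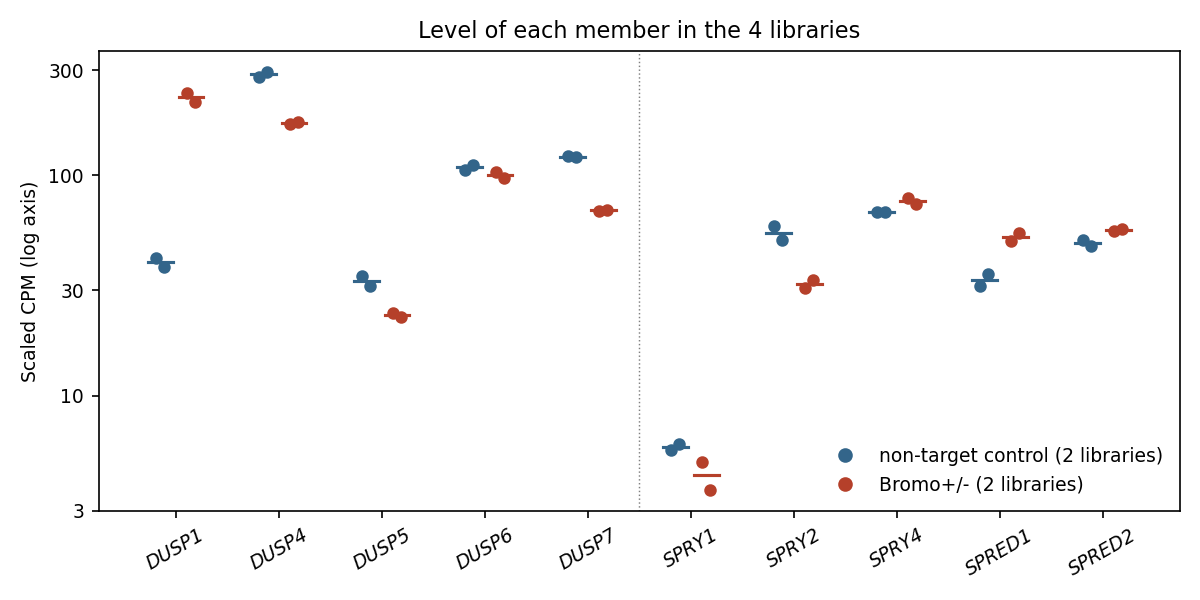
Scaled CPM on a log axis for each of the 10 genes, with 1 point for each of the 4 libraries and a bar at the group mean. DUSP1 rises from 38.4 to 42.0 CPM in the controls to 215 to 236 CPM, while DUSP4, DUSP5, DUSP7 and SPRY2 lie lower in both libraries labelled Bromo+/-.

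Among the phosphatases that act in the nucleus, DUSP1 stood apart. DUSP1, an inducible enzyme that acts on p38 and JNK as well as ERK, lies on chromosome 5 (GRCh38, 172768090 to 172771195, 4 exons). The libraries labelled Bromo+/- held 236 and 215 CPM of DUSP1, the controls 42.0 and 38.4 CPM. Both former libraries were far above both controls, a 5.62-fold difference (log2 fold change 2.49, SE 0.07, adjusted p = 3.16e-100, edgeR). Without any 1 library the log2 fold change lay between 2.42 and 2.56.

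DUSP4 and DUSP5, which are also nuclear and inducible, went the other way. DUSP4, on chromosome 8, was at 172 and 175 CPM against 279 and 295 CPM in the controls. Its groups were well separated, with a 1.65-fold lower level under the label Bromo+/- (log2 fold change -0.73, SE 0.05, adjusted p = 5.72e-30, edgeR). DUSP5, an ERK-specific enzyme encoded on chromosome 10, was at 23.7 and 22.9 CPM against 34.9 and 31.5 CPM. The separation was smaller there (log2 fold change -0.51, SE 0.10, adjusted p = 1.36e-06, edgeR).

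The cytoplasmic phosphatases of ERK, DUSP6 and DUSP7, are close relatives, and their transcripts differed in behaviour. DUSP7 (chromosome 3, 52048919 to 52056550, 3 exons) was at 68.8 and 69.6 CPM against 122 and 121 CPM in the controls. The libraries of each group nearly coincided, 1.76-fold apart between groups (log2 fold change -0.81, SE 0.07, adjusted p = 3.98e-26, edgeR). DUSP6, a transcript commonly used to read ERK output, was at 104 and 97.1 CPM against 106 and 112 CPM. The lower control lay just above the higher library labelled Bromo+/-, and the difference did not pass (log2 fold change -0.11, 95% interval -0.24 to 0.01, adjusted p = 0.124, edgeR). Without Bromo+/- replicate 1 it passed (log2 fold change -0.16, adjusted p = 0.0378, range over all alternatives 0.0378 to 0.71). An unnamed gene on the opposite strand covers 1875 bases (40.5%) of the DUSP6 exons with 7 to 11 counts a library. Whether counting used strand is not given in the sources used here.

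The other MAPK phosphatases with the same domain plan, which act on JNK and p38 or are restricted to few tissues, were lower where they differed. DUSP16, which acts on JNK and p38, was at 15.2 and 17.6 CPM against 37.5 and 42.5 CPM in the controls (log2 fold change -1.29, SE 0.10, adjusted p = 2.65e-28, edgeR). DUSP10, with the same targets, was at 4.40 and 5.05 CPM against 9.84 and 10.5 CPM (log2 fold change -1.11, SE 0.18). DUSP2, a nuclear enzyme, was at 2.36 and 2.21 CPM against 6.88 and 5.62 CPM (log2 fold change -1.44, SE 0.24). DUSP8 had 16 and 3 counts against 18 and 12 and did not pass (adjusted p = 0.131, edgeR), though it did without Bromo+/- replicate 1 (log2 fold change -2.31, adjusted p = 0.00436, range over all alternatives 0.00436 to 0.924). DUSP9 had 3 and 1 counts against none in the controls and was not tested. Of the 9 typical MAPK phosphatases tested, DUSP1 rose, 6 fell, and DUSP6 and DUSP8 did not pass, so that 77.8% were past the threshold beside 53.5% of all genes (27.1% lower).

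**Figure D2:**
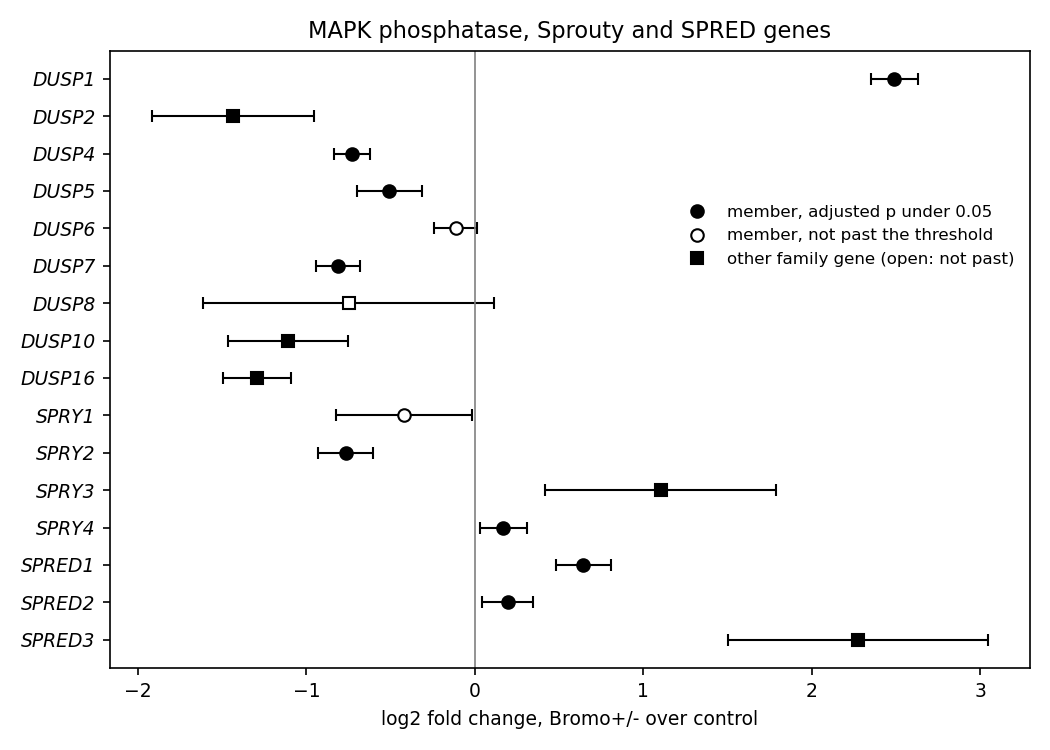
Log2 fold change of Bromo+/- over control with its 95% interval for the 10 genes (circles) and the other tested members of their families (squares), filled where the adjusted p was under 0.05. DUSP1 (2.49) lies alone to the right among the phosphatases, whose other 8 tested genes lie between -1.44 and -0.11, and the 3 SPRED genes lie to the right of 0.

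Per length, the phosphatase that led the family changed. CPM divided by exon length in kilobases (RPKM) allows genes to be compared within a library. In the controls the order was DUSP4 (39.5 ± 1.63 RPKM), DUSP6 (23.5 ± 0.942), DUSP7 (21.5 ± 0.102), DUSP1 (19.9 ± 1.27) and DUSP5 (12.7 ± 0.916), each with SD and n = 2. In the libraries labelled Bromo+/- DUSP1 led with 112 ± 7.17 RPKM, before DUSP4 (23.9 ± 0.346), DUSP6 (21.7 ± 1.02), DUSP7 (12.3 ± 0.104) and DUSP5 (8.90 ± 0.234). Neighbours in both orders did not overlap between the 2 libraries of a group. The place of DUSP6 before DUSP7 in the controls rests on the length used, the merged exons. Reads in the DUSP6 exons that overlap another gene may also have been shared or lost, which was not tested. With the longest coding transcript of GENCODE v29 as the length, chosen after seeing the data, DUSP7 took 25.1% and 24.8% of the summed level of the 5 genes in the controls and DUSP6 16.5% and 17.4%.

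DUSP1 made up 63.4% and 61.7% of the summed RPKM of the 5 phosphatase genes in the libraries labelled Bromo+/-, against 17.8% and 16.2% in the controls. DUSP4 went from 32.8% and 34.7% in the controls to 12.8% and 14.0%. The summed level itself was 184 and 173 RPKM against 117 and 117 RPKM, and without division by length the same 5 genes summed to 604 and 580 CPM against 583 and 598 CPM. The sums of the groups thus overlapped in reads and lay apart per length. In counts, without length, DUSP1 was 39.1% and 37.1% of the 5 genes against 7.21% and 6.42% in the controls. With the longest coding transcript as the length DUSP1 took 58.0% and 56.1% against 14.3% and 13.0%. With 2 libraries against 2, an exact permutation test cannot go below p = 0.333, so these shares were not tested.

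**Figure D3:**
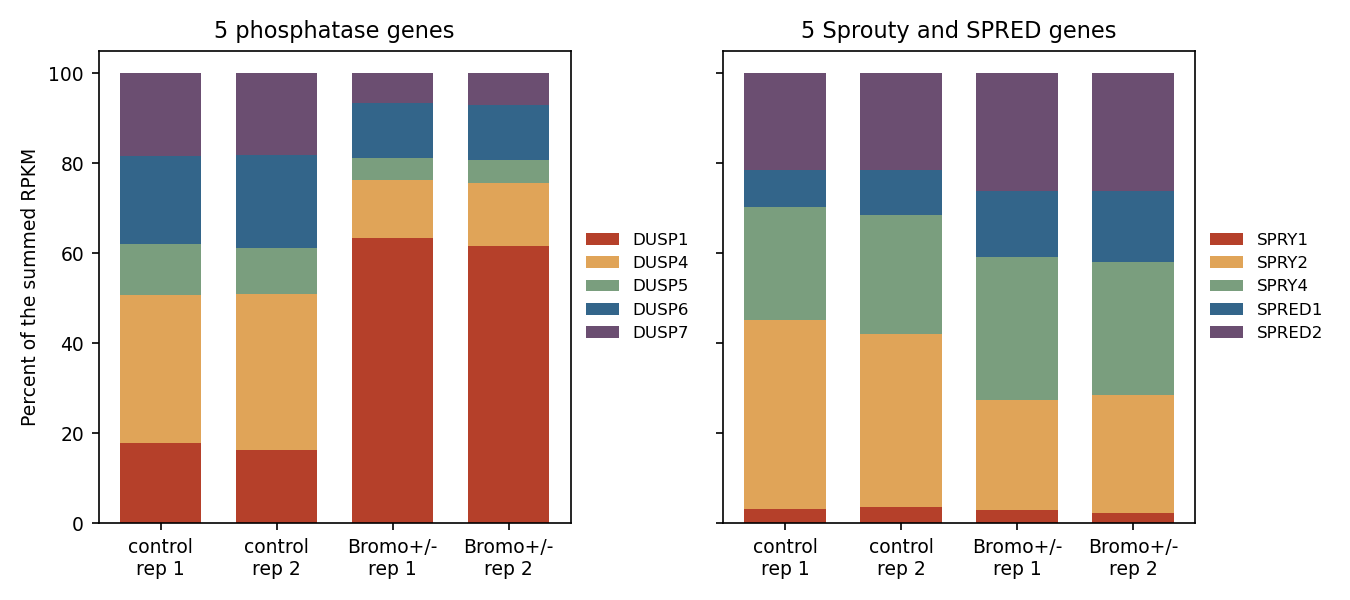
Share of each gene in the summed RPKM of the 5 phosphatase genes (left) and of the 5 Sprouty and SPRED genes (right), 1 bar for each library. DUSP1 takes 61.7% to 63.4% of the left bars under Bromo+/- and 16.2% to 17.8% in the controls, and the share of SPRY2 in the right bars is 24.3% to 26.2% against 38.6% to 42.1%.

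Of the Sprouty genes, SPRY2 fell and SPRY4 rose slightly. SPRY2, whose protein binds the ubiquitin ligase CBL and the adaptor GRB2, lies on chromosome 13 (80335976 to 80340951, 3 exons). The libraries labelled Bromo+/- held 30.6 and 33.6 CPM of SPRY2, the controls 58.6 and 50.8 CPM. The groups did not overlap, and SPRY2 was 1.70-fold lower under the label Bromo+/- (log2 fold change -0.77, SE 0.08, adjusted p = 1.07e-16, edgeR).

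SPRY4, an inhibitor of RAS activation encoded on chromosome 5, was at 78.7 and 74.2 CPM against 68.1 and 68.0 CPM. The difference was 1.12-fold (log2 fold change 0.17, SE 0.07, adjusted p = 0.0348, edgeR), and the call ended under 5 of 13 alternatives, among them the DESeq2 Wald test (adjusted p = 0.183, range over all alternatives 0.00137 to 0.183) and the fits without Bromo+/- replicate 1 (adjusted p = 0.165), control replicate 1 (0.16) or control replicate 2 (0.178). SPRY1 had the lowest level of the 10 genes, 42 to 70 counts a library, at 4.97 and 3.72 CPM against 5.64 and 6.05 CPM. Its 2 libraries labelled Bromo+/- differed by more than the gap to the controls, and it did not pass (log2 fold change -0.42, 95% interval -0.82 to -0.02, adjusted p = 0.0701, edgeR). Without Bromo+/- replicate 1 it passed at a larger size (log2 fold change -0.65, adjusted p = 0.0299), and without Bromo+/- replicate 2 it stood at -0.24 (adjusted p = 0.429). SPRY3, a scarce paralogue, was at 2.36 and 2.75 CPM against 1.15 and 1.21 CPM (log2 fold change 1.10, SE 0.35, adjusted p = 0.00274, edgeR), a call that DESeq2 did not make (adjusted p = 0.103, range over all alternatives 0.0013 to 0.103).

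All 3 SPRED genes were called higher in the libraries labelled Bromo+/-, beside 26.4% of all genes tested. SPRED1, which encodes the partner of neurofibromin that is lost in Legius syndrome, lies on chromosome 15 (38252326 to 38357249, 9 exons). It was at 50.3 and 54.7 CPM against 31.3 and 35.6 CPM in the controls. Both libraries labelled Bromo+/- were above both controls, 1.56-fold on average (log2 fold change 0.64, SE 0.08, adjusted p = 1.43e-12, edgeR). SPRED2, on chromosome 2, was at 56.1 and 57.0 CPM against 50.7 and 48.0 CPM, a 1.15-fold difference (log2 fold change 0.20, SE 0.08, adjusted p = 0.0232, edgeR). That call ended under 5 of 13 alternatives, among them the DESeq2 Wald test (adjusted p = 0.169) and the fit without control replicate 2 (adjusted p = 0.241, range over all alternatives 0.00107 to 0.241). SPRED3, the scarcest of the 3, had 47 and 42 counts against 7 and 10 (log2 fold change 2.28, SE 0.39, adjusted p = 6.13e-10, edgeR).

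Per length, SPRY2 led these genes in the controls and SPRY4 in the libraries labelled Bromo+/-. The control order was SPRY2 (18.0 ± 1.84 RPKM, SD, n = 2), SPRY4 (11.5 ± 0.0161), SPRED2 (9.58 ± 0.374), SPRED1 (4.05 ± 0.368) and SPRY1 (1.47 ± 0.0745). Under the label Bromo+/- it was SPRY4 (12.9 ± 0.528), SPRED2 (11.0 ± 0.121), SPRY2 (10.6 ± 0.681), SPRED1 (6.35 ± 0.374) and SPRY1 (1.10 ± 0.223), and the libraries of SPRED2 and SPRY2 overlapped. The 5 genes summed to 41.6 and 42.2 RPKM against 45.8 and 43.3 RPKM, and without division by length to 220.6 and 223 CPM against 214 and 208 CPM, so the groups separated in opposite directions on these scales. The ratio of SPRY4 to SPRY2 in RPKM was 1.31 and 1.13 under the label Bromo+/-, with 0.595 and 0.686 for the controls. In counts, without length, SPRY4 led in both groups. It took 31.8% and 32.6% of the 5 genes in the controls, beside 27.3% and 24.4% for SPRY2, so the change of leader rests on division by length.

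**Figure D4:**
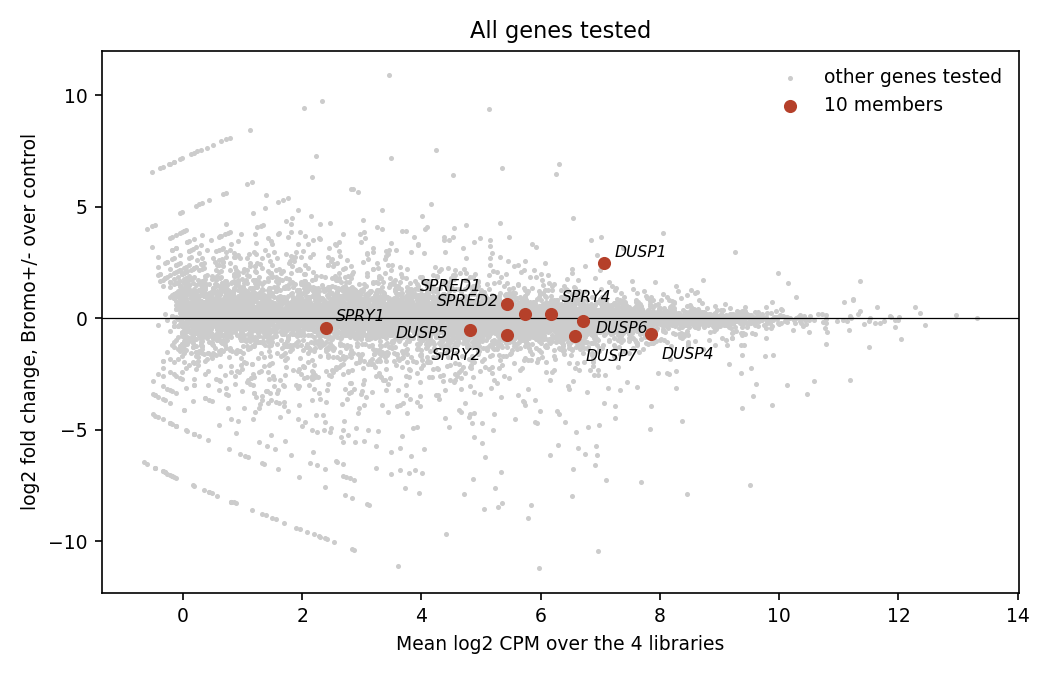
Log2 fold change of Bromo+/- over control against the mean log2 CPM over the 4 libraries, 1 point for each of the 13179 genes tested, with the 10 genes in red. DUSP1 lies above the main cloud at its level, and the other 9 lie between -0.81 and 0.64.

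Genes on either side of these brakes were read from lists of pathway genes, whose shares past the threshold stand beside the 53.5% of all genes. Of 13 tested growth factors and receptors, 4 were higher and 8 lower (92.3% past the threshold, median log2 fold change -0.59). HBEGF, an EGF-family ligand, was at 4.69 ± 0.756 CPM against 117 ± 4.25 CPM, and TGFA, another, at 60.7 ± 2.01 CPM against 146.7 ± 2.46 CPM. The receptor genes ERBB3 (log2 fold change -4.47) and FGFR1 (2.17) changed in opposite directions. The ligands EREG and BTC rose by 0.77 and 0.62, and neither was called by DESeq2 (adjusted p = 0.109 and 0.188) or when Bromo+/- replicate 2 or control replicate 1 was left out. Over all alternatives the adjusted p of EREG ranged from 0.000547 to 0.165 and that of BTC from 0.00571 to 0.188.

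From adaptors to ERK, 5 of 18 tested genes were higher and 5 lower (55.6% past the threshold, median -0.06). The adaptor SHC1 rose (log2 fold change 1.18) as did the MEK gene MAP2K2 (0.42), while the docking protein gene GAB1 (-1.23), the MEK gene MAP2K1 (-0.73) and the ERK gene MAPK3 (-0.91) fell. Of 11 tested kinases of the JNK, p38 and ERK5 arms, 4 were higher and 4 lower (72.7%, median -0.06). Of the 4 p38 genes MAPK13 fell (-1.83), MAPK11 (0.92) and MAPK12 (0.53) rose, and MAPK14, named here after its values were seen, did not pass at 93.4 ± 3.09 CPM against 101.7 ± 5.05 CPM (log2 fold change -0.12, adjusted p = 0.105, edgeR). The activators MAP2K3 (-0.46) and MAP2K4 (-0.49) fell.

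Transcripts commonly read as output of ERK, other than the 10 genes, had 4 higher and 11 lower of 18 tested (83.3%), with a median log2 fold change of -0.27. UPP1, uridine phosphorylase, was at 78.0 ± 5.80 CPM against 426 ± 3.70 CPM, and FOS, an AP-1 subunit, at 7.87 ± 0.643 CPM against 41.9 ± 0.649 CPM. The cytokine gene LIF fell as well (-1.61). The ETS factors ETV1, at 21.6 ± 0.789 CPM against 4.72 ± 0.0536 CPM, and ETV5, at 80.7 ± 4.08 CPM against 46.2 ± 3.94 CPM, rose, as did EGR1 (0.50). ETV4 and ELK3, the other ETS factors of the list, are named after their values were seen. ETV4 fell to 62.1 ± 1.19 CPM from 72.6 ± 0.801 CPM (log2 fold change -0.22, adjusted p = 0.00496, edgeR), a call that ended in DESeq2 (adjusted p = 0.057), with library size alone (0.0893) and without control replicate 1 (0.0697, range over all alternatives 0.0035 to 0.0893). ELK3 did not pass (88.9 ± 1.39 CPM against 90.8 ± 1.45 CPM). The list thus held called genes on both sides, more of them lower, while the 10 feedback genes had 4 on each side. Over all genes tested, 26.4% were higher and 27.1% lower.

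Other brakes were likewise split, with 3 higher and 5 lower of 12 tested (66.7%, median -0.04). RASA1, a GTPase-activating protein of RAS, was at 57.4 ± 3.62 CPM against 119.8 ± 6.09 CPM, and the phosphatase gene PTPN12 (-0.48) and the pseudokinase gene TRIB1 (-0.69) fell. LRIG1, which restrains EGF receptors, rose (0.67). ERRFI1, an inhibitor of EGFR, and PEBP1, an inhibitor of RAF, rose by 0.14 and 0.17, and both calls ended without control replicate 2 (adjusted p = 0.42 and 0.111, edgeR, the highest of all alternatives, the lowest being 6.79e-05 and 1.99e-05). Atypical dual-specificity phosphatases, which lack the MAPK-binding domain, had 3 higher and 4 lower of 9 tested (77.8%), with DUSP23 (1.01) and DUSP19 (1.74) rising and DUSP14 (-0.94) falling. DUSP19 was scarce, with 20 and 20 counts under the label Bromo+/- against 4 and 7 in the controls, and DESeq2 gave it an adjusted p of 0.0497. For DUSP28 (0.74), DUSP11 (-0.30) and DUSP12 (-0.29) the call ended in DESeq2 (adjusted p = 0.171, 0.0853 and 0.0789), and the adjusted p over all alternatives ranged from 0.00401 to 0.171, 0.00333 to 0.171 and 0.00334 to 0.0954.

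**Figure D5:**
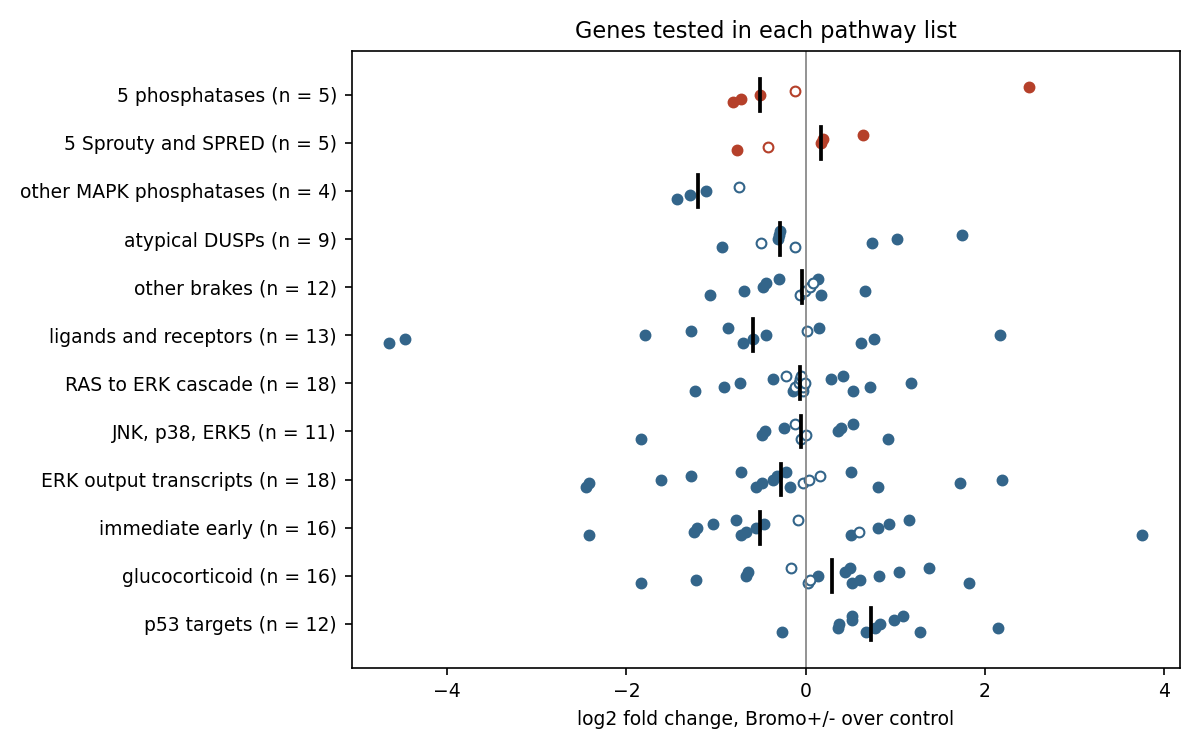
Log2 fold change of Bromo+/- over control for the tested genes of each list, filled where the adjusted p was under 0.05, with a bar at the list's median. The tested typical MAPK phosphatases outside the 10 genes lie below 0 (median -1.20), and most other lists hold called genes on both sides of 0.

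DUSP1 also belongs to classes of genes that respond to other inputs, and these were read beside it. The lists share genes, which count in each. FOS and EGR1 are in the immediate early list and in that of ERK output. ZFP36 is in the immediate early and glucocorticoid lists, and ERRFI1 in the glucocorticoid list and that of other brakes. Of 16 tested immediate early and stress genes, which can also change with cell handling, 5 were higher and 9 lower (87.5% past the threshold beside 53.5% of all genes, median -0.51), with CCN1 (1.15) and BTG2 (0.81) rising and FOS (-2.41), KLF6 (-1.03) and KLF4 (-0.77) falling. Of 16 tested genes of the glucocorticoid response, for which hydrocortisone was in the medium of both groups, 9 were higher and 4 lower (81.2%, median 0.29). SGK1, a kinase gene, was at 75.4 ± 3.91 CPM against 29.2 ± 2.57 CPM and ZBTB16, a zinc finger gene, at 14.7 ± 2.19 CPM against 4.19 ± 0.423 CPM, while BIRC3 (-1.84) and ZFP36 (-0.67) fell. Of 12 tested p53 targets, 11 were higher, beside 26.4% of all genes, and PHLDA3 was lower (median 0.72), with TP53INP1 at 17.7 ± 1.58 CPM against 4.04 ± 1.18 CPM. The part of any of these classes in the level of DUSP1 was not tested.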

How the data were processed

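A single table of raw counts by Ensembl gene identifier was deposited by the authors. Alignment used STAR and the human build GRCh38, and featureCounts 1.5.2 did the counting, per the submitters' processing notes. Which annotation release, strand setting and rule for multi-mapping reads applied is not given in the sources used here. How reads in overlapping genes were counted is not given either, so such genes may share or lose counts. Per the file headers, each gene has a length, the summed bases of its exons. Columns were matched to samples by name, with WT taken for the non-target control, and no column was left unused. Within each group the names also share an unexplained number, so anything it marks cannot be told apart from the group. A table of symbols covered 57392 gene identifiers.

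Counts were tested in R 4.3.3 with edgeR 4.0.16: genes kept by filterByExpr, library sizes scaled by TMM factors (trimmed mean of M values), and groups compared by the robust quasi-likelihood test with Benjamini-Hochberg adjustment over all 13179 genes, at an adjusted p of 0.05. The residual degrees of freedom were 2. The test adds degrees of freedom from the spread shared across all genes. The SE, from the fitted model, and the 95% intervals use that shared spread as well. Replicates were compared first: counts within a group differed by more than sampling noise (chi-square per degree of freedom 2.44 and 1.56). Each library counted once, but such an excess does not show that the libraries came from separate cultures. The spread shared across genes was small, a common biological coefficient of variation of 3.52%. Libraries of a group correlated at r = 0.997 across genes, against at most 0.934 between groups. A total of 3 counts equals 0.245 to 0.287 CPM. The 10 genes and all lists were chosen with earlier results of these data known. Named genes are the 10, their paralogues, EP300, CREBBP and HRAS, and up to 3 called genes per direction from each list by smallest p. Not every gene that this rule picks from the lists is named above. MAPK14, ETV4 and ELK3 were added after their values were seen.

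On counts simulated from these libraries (13179 genes), 46 of 67 genes given a log2 change of 0.5 were found, as were 58 of 67 at a change of 1 and 66 of 66 at 2, with 2 false calls among 12979 unchanged genes. The changed genes were drawn from those above a mean of 1 CPM. Far fewer genes changed in this simulation than the 53.5% that passed in the data, so its rates need not hold for the data. Alternatives were other scalings (size factors, upper quartile, library size alone), no filter and a filter at 1 CPM, the test without robust estimation, DESeq2 1.42.0, limma-voom (limma 3.58.1), a replicate block, and leaving out each library.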

Additional observations from a re-analysis of the deposited data

How the results depend on the processing

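No direction of the 10 genes turned under any of 13 alternatives. Of the other named genes, only ELK3, which was not called, turned, from -0.031 to 0.029 with upper quartile scaling and 0.053 with library size alone. DUSP1 (log2 fold change 2.42 to 2.57), DUSP4 (-0.77 to -0.64), DUSP5 (-0.58 to -0.42), DUSP7 (-0.82 to -0.73), SPRY2 (-0.87 to -0.66) and SPRED1 (0.56 to 0.74) kept their calls under all of them. The count of the 10 genes called higher was 2 with no filter on low counts and 2 with the DESeq2 Wald test, and 2 to 3 with 1 library left out. SPRY4 missed the threshold with no filter (log2 fold change 0.16, adjusted p = 0.0775, edgeR) and with DESeq2 (0.17, adjusted p = 0.183). With 1 library left out its log2 fold change lay between 0.13 and 0.21. SPRED2 missed it with no filter (log2 fold change 0.19, adjusted p = 0.0524, edgeR) and with DESeq2 (0.19, adjusted p = 0.169). With 1 library left out its log2 fold change lay between 0.16 and 0.24. EP300 missed it with DESeq2 (log2 fold change 0.18, adjusted p = 0.0639). With 1 library left out its log2 fold change lay between 0.16 and 0.22. DUSP6 and SPRY1 passed without Bromo+/- replicate 1, and with 1 library left out they lay between -0.16 and -0.069 and between -0.65 and -0.24. The cause of these changes was not tested.

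Over all genes, 7055 passed (3485 higher and 3570 lower), 4884 with DESeq2 and 5584 to 6577 with 1 library left out. Scaled by library size alone, 4433 were higher and 2794 lower. Deviations of same-numbered libraries correlated only weakly across genes (0.0719). These deviations also hold counting noise, so the correlation cannot decide whether the numbers pair the libraries. With the replicate block 7271 genes passed, and of the 10 genes 4 were called higher and 4 lower. SPRY1 had the fewest counts of the 10 genes, 42 to 70 a library.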
